A study of Zea mays with 6 samples.

Results

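The genes described here are 4 genes of the maize circadian clock, chosen by gene ID out of 45855 genes in the deposited tables. They form 2 pairs: Zm00001d024546 and Zm00001d049543, transcription factors of the CCA1/LHY type that belong to the morning phase, and Zm00001d008826 (gi1) and Zm00001d039589 (gi2), which belong to the evening phase. Their names came with the rule that chose them, and no table used here pairs these IDs with a name. All 4 passed the filter on low counts and were among the 26098 genes tested.

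RNA was sequenced from whole seedlings of maize (Zea mays) in the coleoptile stage, the first days after germination, in 3 wild-type and 3 Fdl1-/- samples. The fused leaves1 gene (FDL1) codes for a transcription factor of the MYB family that is needed for the cuticle of the seedling and keeps its young organs from fusing. The labels state no treatment, inbred background, seedling age, light regime or hour of collection, and they do not give the lesion of the mutant allele or whether seedlings were pooled. The design text calls the 3 samples of each group biological replicates.

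The plant circadian clock is a loop of genes that repress one another in turn over the day and night. In Arabidopsis the MYB-related proteins CCA1 and LHY accumulate around dawn and repress genes of the evening, among them GIGANTEA, whose transcript peaks late in the day and falls at night. GIGANTEA works with a family of light-sensing F-box proteins that direct the breakdown of clock proteins, and it links the clock to flowering time. In maize both functions are carried by duplicate gene pairs. Because morning and evening genes peak at about opposite times, their relative level in a sample varies with the time of day at which it was taken and with the state of its clock.

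The libraries held 26807205 to 36123679 expected counts, and each clock gene had between 561 and 11244 of them in a library. Counting error was therefore small, with exact 95% Poisson intervals of at most plus or minus 8.37% of the count. These intervals cover counting error only. The FDL1 locus, Zm00001d022227, an ID recalled from published work and paired with the name by no table used here, had 5.18, 3.88 and 5.39 CPM (counts scaled to a common library size) in wild-type replicates 1, 2 and 3 and 4.39, 3.75 and 3.72 CPM in the mutant replicates (edgeR adjusted p 0.651). Its level overlapped between the genotypes, while its mean transcript length (weighted by estimated transcript shares) was 1607 to 1621 nt in the wild-type libraries and 1542 to 1554 nt in the mutant libraries. The lesion is not given in the labels, so neither value was used as a check of them. Wild-type replicate 1 lay apart from the other libraries, with correlations of log2 CPM across genes of 0.949 and 0.938 with the other wild-type libraries, where these correlated at 0.975 with each other and mutant libraries at 0.973 to 0.980. Markers of seedling tissues were not checked, since no table used here names them by these IDs.

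Both morning genes rose and both evening genes fell in the Fdl1-/- seedlings. The CCA1/LHY-type gene Zm00001d049543 was 8.95-fold higher in the mutant and its partner Zm00001d024546 was 2.36-fold higher, while gi2 was 2.34-fold lower and gi1 was 1.69-fold lower. Each of the 4 genes had an adjusted p under 0.05 in edgeR's quasi-likelihood test across all tested genes, a threshold that 2.68% of tested genes passed. DESeq2 also called each of them, among the 7.67% of its tested genes that it called. The 3 mutant libraries did not overlap with the 3 wild-type libraries for any of the 4 genes, as for 21.9% of tested genes. In whole seedlings a change in RNA per cell and a change in the share of cells that express a gene cannot be told apart. The comparison asks whether the clock stood at the same phase in the libraries of both genotypes.

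**Figure D1:**
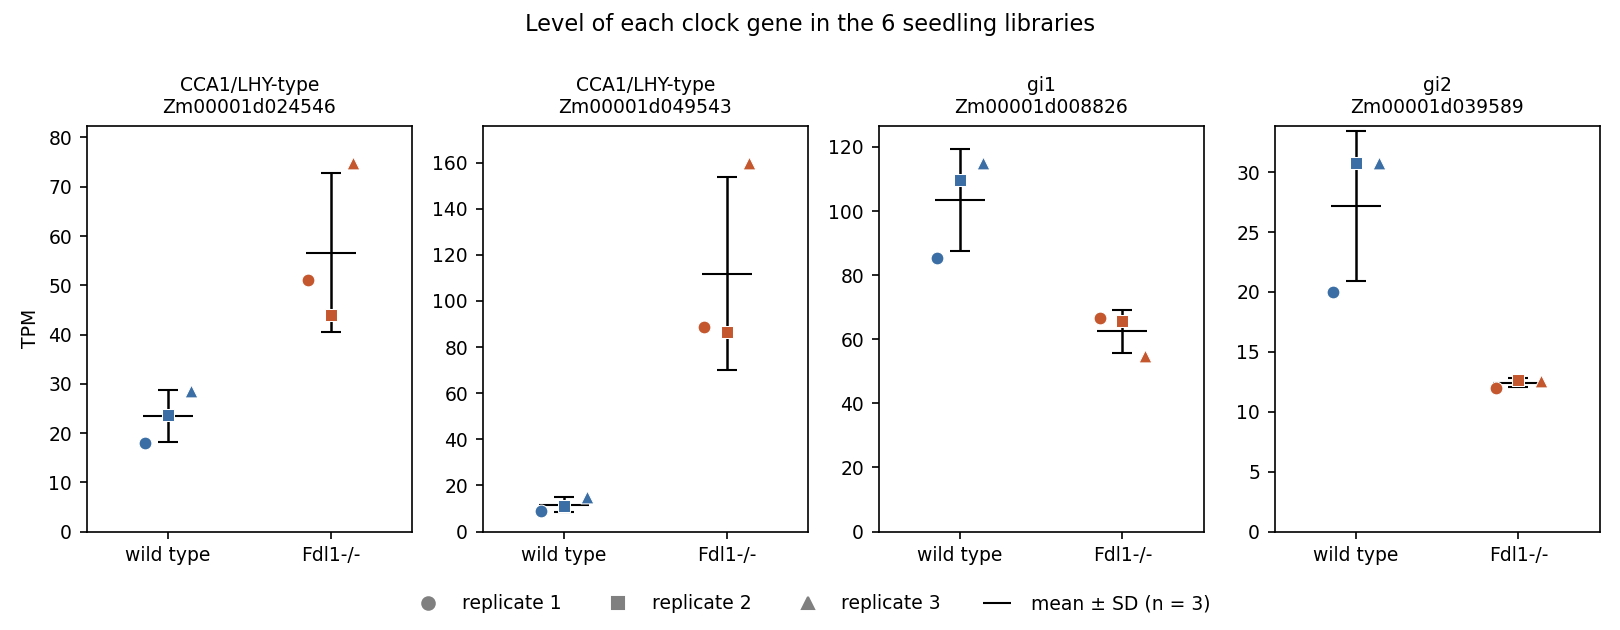
Level of each clock gene in TPM (vertical axes from 0, a separate scale in each panel) in 3 wild-type (blue) and 3 Fdl1-/- (orange) libraries, with the mean and SD in black. The mutant libraries lie above all wild-type libraries for both CCA1/LHY-type genes and below them for gi1 and gi2.

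Zm00001d049543, one of the CCA1/LHY-type genes, moved furthest. Its level was 8.71, 11.0 and 15.1 TPM (a level per transcript length, scaled to the library) in wild-type replicates 1, 2 and 3. In mutant replicates 1, 2 and 3 it was 88.9, 86.4 and 160.0 TPM. The lowest mutant library was thus 5.73 times the highest wild-type library, and mutant replicate 3 stood above the other mutants. On the scale of CPM, which does not use length, the gene went from 25.9 ± 5.05 in wild type to 232 ± 84.4 in the mutant (SD, n = 3). This was a log2 fold change of 3.16 ± 0.29 (SE), with a 95% interval from 2.49 to 3.84 and an edgeR adjusted p of 0.00497. Among the 14000 tested genes with a mean of at least 10 CPM it had the 34th highest log2 fold change. The gene kept an adjusted p under 0.05 in all 17 alternatives run on it, which gave 0.0305 at most.

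Zm00001d024546, the other gene of the CCA1/LHY type, rose less. It stood at 17.9, 23.8 and 28.5 TPM in wild-type replicates 1, 2 and 3. Mutant replicates 1, 2 and 3 had 51.0, 44.0 and 74.9 TPM. Replicate 3 was again the highest mutant library, and the lowest mutant was 1.55 times the highest wild type. The CPM means were 38.2 ± 6.58 for wild type and 90.3 ± 23.2 for the mutant (SD, n = 3). Its log2 fold change of 1.24 ± 0.21 (SE) had a 95% interval from 0.74 to 1.74 and an edgeR adjusted p of 0.0332. With 1 library fewer the call was lost in 5 of 6 cases, while the log2 fold change stayed between 1.01 and 1.38. The edgeR adjusted p was 0.0593 and 0.124 without wild-type replicates 1 and 2. It was 0.111, 0.0599 and 0.0767 without mutant replicates 1, 2 and 3. Over all tested genes 757 and 149 were called without wild-type replicates 1 and 2, against 699 with all libraries. Without mutant replicates 1, 2 and 3 the numbers were 128, 184 and 193.

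The evening gene gi2, Zm00001d039589, had 19.98, 30.8 and 30.8 TPM in wild-type replicates 1, 2 and 3. It had 12.0, 12.7 and 12.6 TPM in the mutant replicates. The mutant libraries lay close together, whereas wild-type replicate 1 was well below the other wild types and still 1.58 times the highest mutant. In CPM the gene fell from 78.5 ± 17.8 to 33.6 ± 2.92 (SD, n = 3). Its log2 fold change of -1.23 ± 0.18 (SE) had a 95% interval from -1.66 to -0.80 and an edgeR adjusted p of 0.0226. Only 131 of the 14000 genes at 10 CPM or more had a log2 fold change as low or lower. The edgeR adjusted p was 0.0859 without wild-type replicate 2 and 0.121, 0.0839 and 0.0852 without mutant replicates 1, 2 and 3. In the same settings the genes called over all fell from 699 to 149 and to 128, 184 and 193.

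The other evening gene, gi1 (Zm00001d008826), showed the smallest change of the 4. Its level was 85.3, 109.7 and 115 TPM in wild-type replicates 1, 2 and 3. In the mutant replicates it was 66.8, 65.8 and 54.9 TPM. The groups did not overlap, and the lowest wild type was 1.28 times the highest mutant. The CPM means were 279 ± 38.4 and 165 ± 17.6 (SD, n = 3). The estimated log2 fold change was -0.76 ± 0.15 (SE) with a 95% interval from -1.11 to -0.41, and the adjusted p of 0.0486 in edgeR lay just under the threshold. It rose to 0.0505, 0.0502 and 0.0520 with RLE, upper quartile and library total scaling and to 0.0616 and 0.0627 with limma on TPM at pseudocounts of 1 and 0.1. The edgeR adjusted p was 0.149 and 0.0953 without wild-type replicates 2 and 3 and 0.193, 0.160 and 0.135 without mutant replicates 1, 2 and 3. Over all tested genes 149 and 837 were called without wild-type replicates 2 and 3, against 699 with all libraries. Without mutant replicates 1, 2 and 3 the numbers were 128, 184 and 193. The direction of gi1 did not change in any of these settings.

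**Figure D2:**
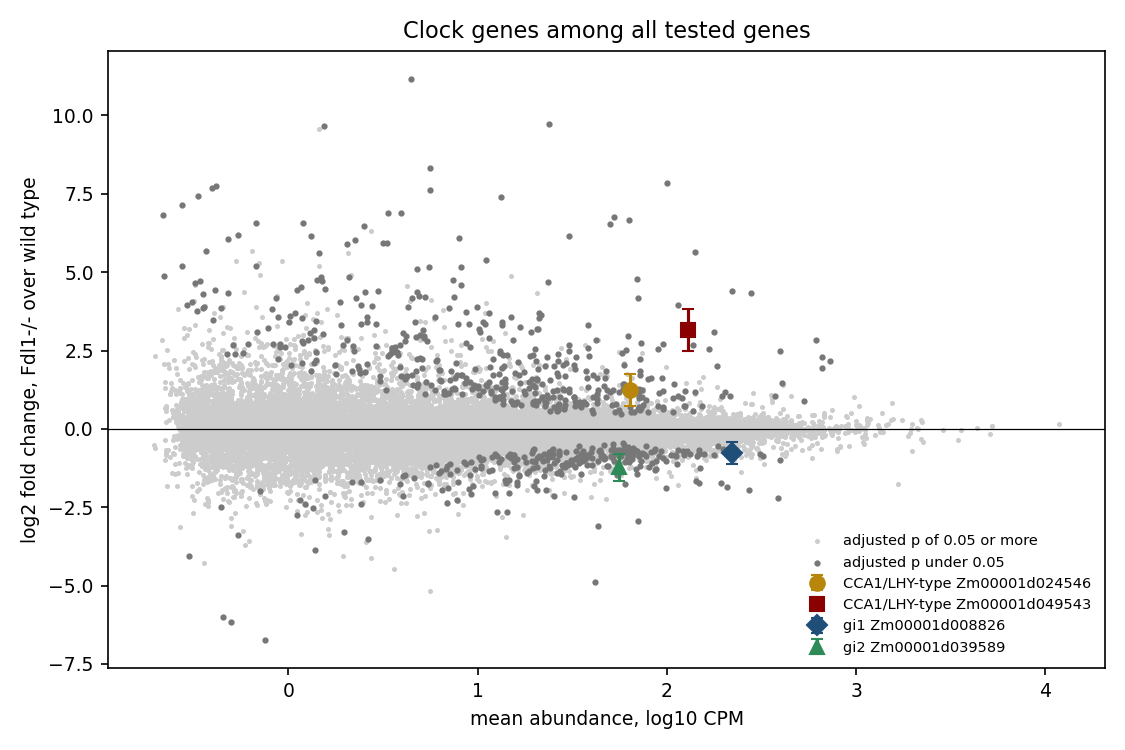
Log2 fold change (Fdl1-/- over wild type) against mean abundance (log10 CPM) for 26098 tested genes, with genes at an adjusted p under 0.05 in dark grey and the 4 clock genes in colour with their 95% intervals. Both CCA1/LHY-type genes lie above 0 and gi1 and gi2 below 0.

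For each of the 4 genes a difference in log2 CPM had an exact permutation p (two-sided) of 0.1, the smallest that 3 against 3 libraries allow. Of all tested genes, 1.68% were called higher and 0.996% lower in the mutant, and 10.7% and 11.2% had groups that did not overlap in those directions. The median log2 fold change of all tested genes was -0.033. Wild-type replicate 1, the library that lay apart, was the lowest wild type for all 4 genes, at 0.649 to 0.759 times the mean TPM of the other wild types. Without it the log2 fold changes were 3.04 and 1.12 for Zm00001d049543 and Zm00001d024546 and -0.87 and -1.40 for gi1 and gi2, so both directions were seen without that library.

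The order of the 4 genes by level per length differed between the genotypes. In wild type gi1 was highest at 103 ± 15.9 TPM, followed by gi2 at 27.2 ± 6.24 TPM and Zm00001d024546 at 23.4 ± 5.28 TPM, and Zm00001d049543 was lowest at 11.6 ± 3.22 TPM (SD, n = 3). The ranges of gi2 and Zm00001d024546 overlapped, and those of the other neighbours in this order did not. Among the mutant libraries Zm00001d049543 was highest at 112 ± 41.8 TPM, followed by gi1 at 62.5 ± 6.62 TPM and Zm00001d024546 at 56.6 ± 16.2 TPM, and gi2 was lowest at 12.4 ± 0.382 TPM (SD, n = 3). Here the ranges of gi1 and Zm00001d024546 overlapped. Zm00001d049543 thus went from the lowest to the highest of the 4. Among all 45855 genes it ranked between 11004 and 14314 by TPM in the wild-type libraries and between 1068 and 2079 in the mutant libraries.

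The balance of the pairs was summarised as the summed TPM of both CCA1/LHY-type genes over the summed TPM of gi1 and gi2. It is a score over the chosen genes, given as a description with no test. The morning pair had 0.253, 0.248 and 0.298 times the level of the evening pair in wild-type replicates 1, 2 and 3. In mutant replicates 1, 2 and 3 it had 1.78, 1.66 and 3.48 times that level. Evening transcripts thus outweighed morning transcripts in every wild-type library, and morning transcripts outweighed evening transcripts in every mutant library. On the log2 scale the ratio was -1.91 ± 0.148 for wild type and 1.12 ± 0.591 for the mutant (SD, n = 3), a difference of 3.03 or 8.19-fold. The lowest mutant ratio was 5.57 times the highest wild-type ratio, whereas ratios spanned 1.21-fold within wild type and 2.10-fold within the mutant.

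**Figure D3:**
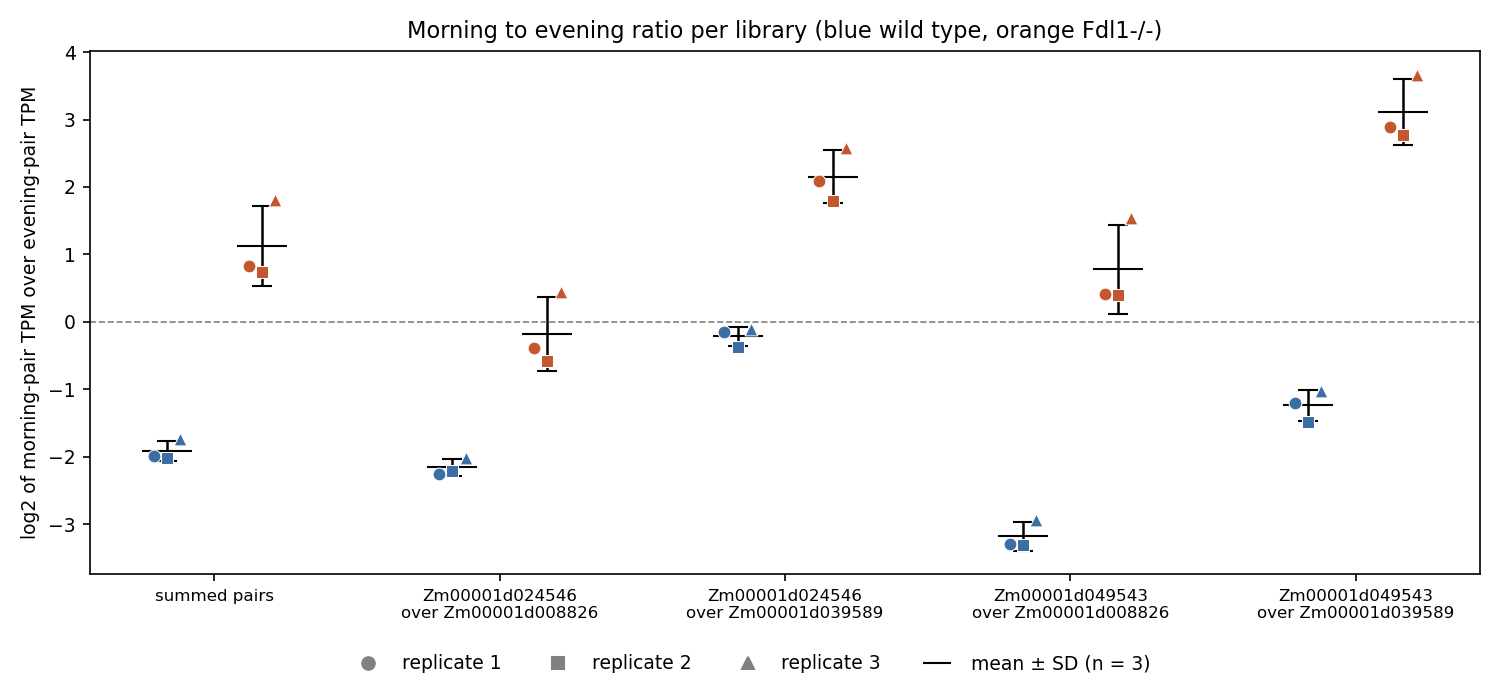
Log2 ratio of morning-gene TPM to evening-gene TPM in each wild-type (blue) and Fdl1-/- (orange) library, for the summed pairs and for each of the 4 combinations of single genes, with the mean and SD in black. In all 5 ratios the mutant libraries lie above the wild-type libraries, and mutant replicate 3 is the highest.

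Each combination of a single morning gene and a single evening gene gave the same direction of difference between the genotypes. The log2 ratio of Zm00001d024546 to gi1 was -0.389, -0.581 and 0.450 in mutant replicates 1, 2 and 3. In replicates 1 and 2 gi1 thus remained the higher of these genes. In the other combinations the morning gene was higher in every mutant library. The difference in log2 ratio between the genotypes was 1.98 for Zm00001d024546 over gi1 and 2.37 for Zm00001d024546 over gi2. It was 3.96 for Zm00001d049543 over gi1 and 4.35 for Zm00001d049543 over gi2. The labels give no hour of collection, so seedlings of the 2 genotypes taken at different times of day, a clock that runs at another phase in the mutant, and a change in these transcripts apart from the phase cannot be told apart. No hour can be read from the ratio either, since no time course was used here.

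Libraries of one genotype also differed among themselves. The SD of log2 CPM over the mutant libraries was 0.36 for Zm00001d024546 and 0.49 for Zm00001d049543, at the 92.5th and 96.2nd percentile of the 14000 genes with a mean of at least 10 CPM, whose median SD was 0.12. For gi1 and gi2 it was 0.16 and 0.13 in the mutant, at the 65.6th and 52.7th percentile. In wild type, where the median SD of those genes was 0.20, the SD was 0.25 for Zm00001d024546, 0.28 for Zm00001d049543, 0.21 for gi1 and 0.36 for gi2, at percentiles from 51.9 to 82.3. The wide spread in the mutant came with replicate 3, where Zm00001d024546 was 1.58 times and Zm00001d049543 1.83 times the mean TPM of the other mutants. In that library gi1 was 0.827 times and gi2 1.02 times the mean of the others, so gi1 was lower there while gi2 was not. Among the wild-type libraries replicate 3 had the highest TPM of both morning genes and also of gi1, so within wild type the pairs did not move in opposite directions on that scale. With group means removed, the log2 CPM of the CCA1/LHY-type genes correlated at 0.97 over the 6 libraries and that of gi1 and gi2 at 0.75. Between a morning and an evening gene these correlations ran from -0.23 to 0.40. They rest on 3 libraries a group that share scaling, and they are a description only.

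The partners of a pair did not move by the same amount. In wild type Zm00001d024546 gave 67.3%, 68.3% and 65.4% of the summed TPM of the morning pair in replicates 1, 2 and 3. In the mutant replicates it gave 36.4%, 33.8% and 31.9%. The larger share of the morning pair thus passed from Zm00001d024546 in every wild-type library to Zm00001d049543 in every mutant library. The log2 ratio of Zm00001d024546 to Zm00001d049543 was 1.02 ± 0.0958 for wild type and -0.96 ± 0.147 for the mutant (SD, n = 3). In the gi pair gi1 gave most of the transcripts in both groups, with 78.1% to 81.0% for wild type and 81.3% to 84.8% for the mutant. The log2 ratio of gi1 to gi2 was 1.94 ± 0.135 and 2.33 ± 0.184 (SD, n = 3), and its groups did not overlap by a narrow margin, with 2.09 as the highest wild type and 2.12 as the lowest mutant.

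**Figure D4:**
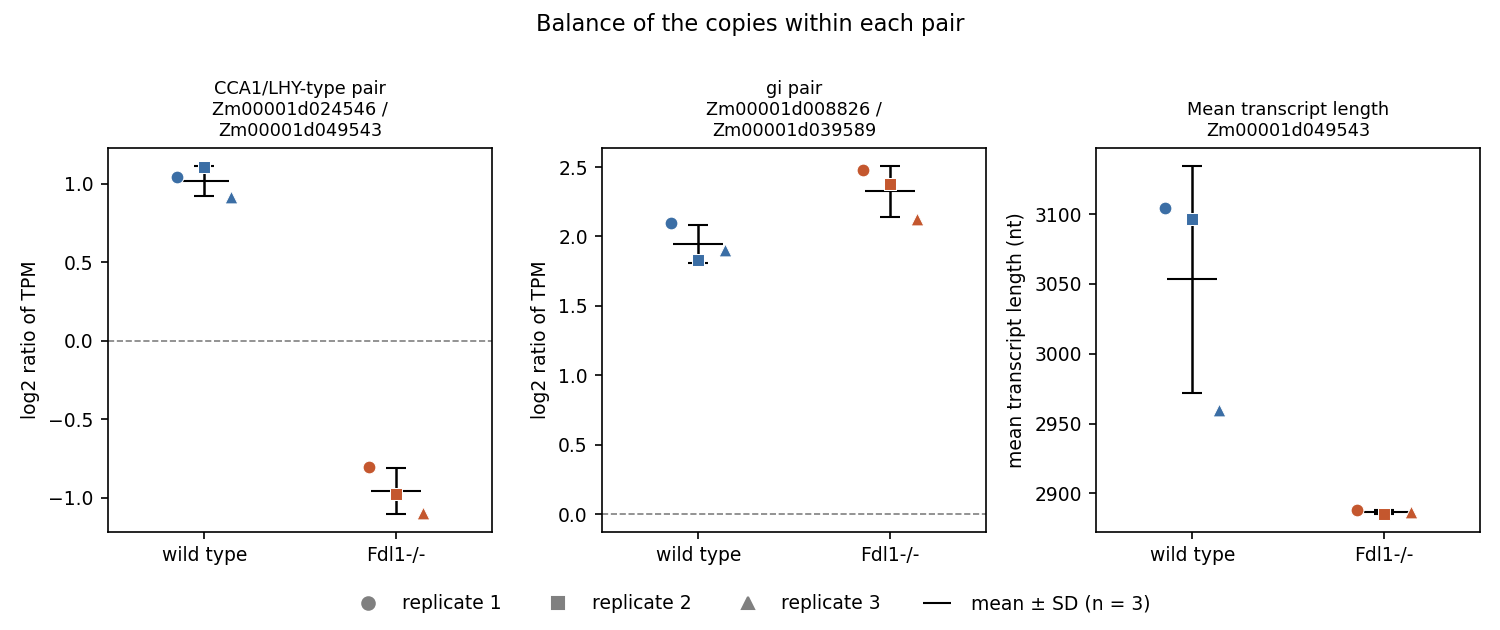
Log2 ratio of TPM between the partners of the CCA1/LHY-type pair (left) and of the gi pair (middle), and mean transcript length in nt of Zm00001d049543 (right, axis not from 0), in wild-type (blue) and Fdl1-/- (orange) libraries with the mean and SD in black. The ratio of the CCA1/LHY-type pair is above 0 in wild type and below 0 in the mutant, and the mutant libraries have the shorter mean length.

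Reads shared between similar genes are divided by estimate, and none of the 24 expected counts of these genes was whole within 0.005. A count that is not whole shows neither which gene shares the reads nor how many are shared. The uncertainty of the split between partners was not measured. Where the counts of each pair were summed before the fit, the morning pair had a log2 fold change of 2.33 (SE 0.26, edgeR adjusted p 0.00890) and went from 64.1 ± 11.6 to 322 ± 107 CPM (SD, n = 3). The summed gi pair had a log2 fold change of -0.85 (SE 0.15, edgeR adjusted p 0.0389) and went from 358 ± 56.2 to 199 ± 18.0 CPM (SD, n = 3). Both pairs thus passed the test in these directions without any split of reads between partners. No other scaling, filter, replicate block or left-out library was run on the sums. Reads shared with genes outside a pair are not covered by this sum.

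The deposited mean transcript length, which weights the annotated transcripts of a gene by their estimated shares, also differed for Zm00001d049543. This gene has 15 annotated transcripts, and its mean length was 3104, 3097 and 2959 nt in wild-type replicates 1, 2 and 3. It was 2888, 2885 and 2887 nt in the mutant replicates. All mutant libraries lay below all wild types. An exact permutation test (two-sided) gave p = 0.1, the smallest that this design allows and the value of any full separation. The share of all genes whose lengths separate the groups was not counted, so this shift is not shown to be particular to the gene. Wild-type replicate 3, which had the highest level of the gene among wild types, also had the shortest length among them. The lengths of the other genes overlapped between the groups. They were 2239 ± 28.4 and 2233 ± 37.7 nt for Zm00001d024546 with 2 annotated transcripts, 3644 ± 148 and 3648 ± 41.3 nt for gi1 with 89, and 3892 ± 202 and 3734 ± 208 nt for gi2 with 104, in wild type and mutant (SD, n = 3). The exact permutation p of these differences was 1, 0.9 and 0.4 in that order. With so many annotated transcripts the lengths of gi1 and gi2 are estimates over many alternatives, and a shift in such a mean need not mean that any single transcript changed in length.

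Among the 14000 genes with a mean of at least 10 CPM, those whose log2 CPM followed the log2 morning to evening ratio most closely over the 6 libraries were picked out by Pearson correlation. Zm00001d024762 had the highest correlation at 0.999, with 6.09, 5.75 and 6.23 CPM in wild-type replicates 1, 2 and 3 and 18.1, 17.4 and 24.8 CPM in the mutant replicates. Zm00001d046483 followed at 0.998, with 6.78, 7.25 and 7.23 CPM in wild type and 16.5, 16.3 and 21.2 CPM in the mutant. The mean was taken over all 6 libraries, and both genes reached 10 CPM only through the mutant libraries, where they were higher. The lowest correlations were those of Zm00001d010987 and Zm00001d050816, both at -0.995. Zm00001d010987 had a mean of 86.0 CPM in wild type and 41.0 CPM in the mutant, and Zm00001d050816 had 35.1 and 29.7 CPM. No p-value is given for genes picked in this way. In all, 212 genes lay at 0.95 or above and 118 at -0.95 or below, or 2.36% of those compared. The ratio separates the genotypes, so these correlations hold the genotype difference as well as the order of libraries within it. Zm00001d024762, Zm00001d046483, Zm00001d010987 and Zm00001d050816 were selected as the extremes of this measure, so their likeness to the ratio is a description and supports nothing further. The clock genes themselves correlated with the ratio at 0.997 for Zm00001d049543, 0.977 for Zm00001d024546, -0.948 for gi1 and -0.911 for gi2, where each is part of the ratio. With group means removed these correlations were 0.946, 0.888, -0.525 and 0.064 in the same order.

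**Figure D5:**
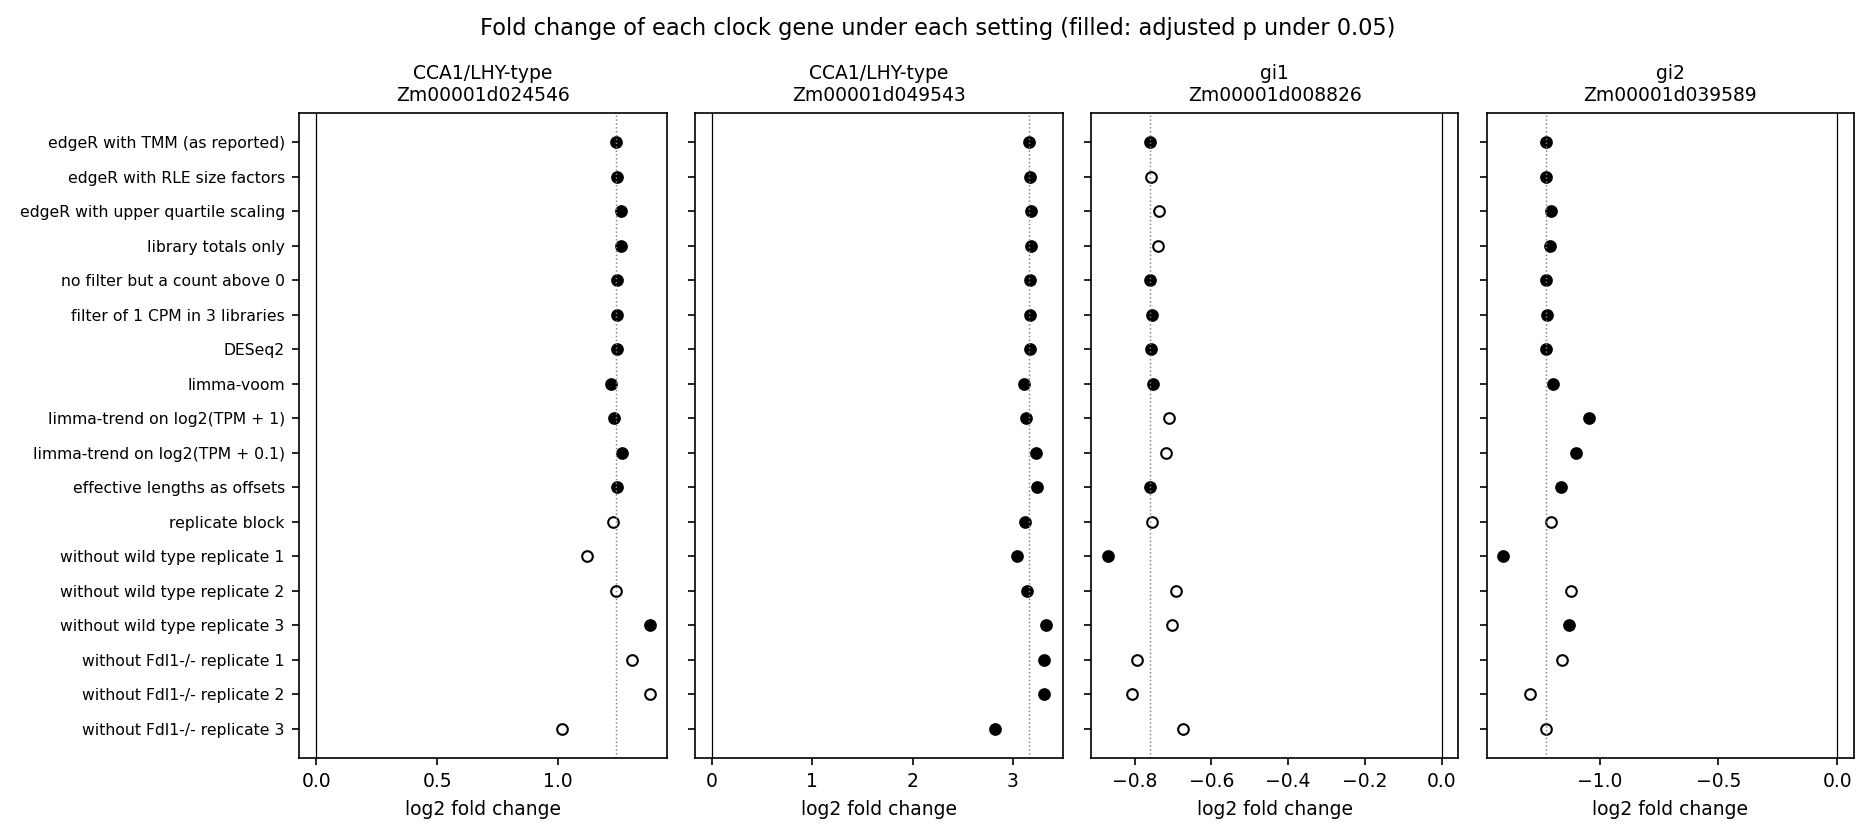
Log2 fold change (horizontal axes, a separate scale in each panel) of each clock gene under the reported setting and 17 alternatives, with filled points for an adjusted p under 0.05 and the reported value as a dotted line. All points for the CCA1/LHY-type genes lie above 0 and all points for gi1 and gi2 below 0, and all points for Zm00001d049543 are filled.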

How the data were processed

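Polyadenylated RNA of 3 wild-type and 3 Fdl1-/- seedling samples was sequenced from libraries of a stranded TruSeq kit, per the labels' protocols. The submitters' processing notes list Bowtie2, RSEM, DESeq2 and limma, and the genome build B73 RefGen_v4, but neither versions nor roles. The tables are gene-level RSEM output, per the file headers. Their deposited expected counts are estimates that divide shared reads, the deposited TPM values are scaled to length and library, and the deposited lengths are means over transcripts. FPKM was not used here.

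Gene IDs were cut from transcript IDs. Rounded expected counts were tested with edgeR 4.0.16 under R 4.3.3 (filterByExpr with a minimum count of 10 and total of 15, TMM, quasi-likelihood test, two-sided, Benjamini-Hochberg at 0.05) over all 6 libraries, with no replicate block. Log2 CPM used a prior count of 2. SEs were derived from the F statistic. Exact permutation tests used scipy 1.17.1. The fit was tested on simulated counts. Alternatives were other scalings and filters, limma 3.58.1 (voom and TPM), DESeq2 1.42.0, length offsets, a replicate block, summed pairs and leaving out each library.

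The 4 genes and the rule for named genes were chosen with earlier results of these data known. The rule names the 4 genes, FDL1, and the 2 highest and 2 lowest correlations with the morning to evening ratio among genes with a mean of at least 10 CPM. Other clock genes were to be named by symbol and none could be, since the table of symbols at hand pairs none with these IDs. Sequences and coordinates were not used here.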

Additional observations from a re-analysis of the deposited data

How the results depend on the processing

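Directions of the 4 clock genes were the same in all 17 alternatives run on each gene, and Zm00001d049543 passed the threshold in 17 of them, Zm00001d024546 in 11, gi2 in 12 and gi1 in 6. Same-numbered libraries had correlations of deviations of -0.22, 0.13 and -0.18, and libraries of different numbers had -0.18 to 0.27. Numbers were thus not taken to pair samples. Deviations from means of 3 libraries are not independent, so these correlations cannot exclude a pairing. With a replicate block the log2 fold changes were 1.22, 3.12, -0.75 and -1.20 for Zm00001d024546, Zm00001d049543, gi1 and gi2 (edgeR adjusted p 0.0570, 0.0132, 0.151 and 0.0556), and 122 genes were called (105 higher, 17 lower) in place of 699 (439 and 260). That fit has fewer residual degrees of freedom. With RLE, upper quartile and library total scaling gi1 was at -0.76, -0.74 and -0.74, and with limma on TPM at -0.71 and -0.72 for pseudocounts of 1 and 0.1, past the threshold in none. When 1 library was left out, log2 fold changes ran from 1.01 to 1.38 for Zm00001d024546, 2.82 to 3.33 for Zm00001d049543, -0.87 to -0.67 for gi1 and -1.40 to -1.12 for gi2. Genes called then ran from 128 to 837, with 109 to 528 higher and 19 to 309 lower, and numbered 149 without wild-type replicate 2 and 128, 184 and 193 without mutant replicates 1, 2 and 3. DESeq2 called 1997 genes (1066 higher, 931 lower). The difference in log2 morning to evening ratio was 2.69 to 3.23 when 1 library was left out, 3.14 in CPM, 3.15 from mean log2 TPM, and 1.98, 2.37, 3.96 and 4.35 for single genes. The cause of these changes was not tested.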
